A study of Homo sapiens with 20 samples.

Results

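MicroRNA host transcripts are long RNAs whose genes contain the hairpins from which microRNAs are cut. The 5 followed here were found by their symbols in the count files, MIR34AHG, MIR3142HG, MIR155HG, MIR17HG and MIR22HG, which are 5 of the 58288 genes in the files. MIR34AHG and MIR3142HG were picked because they were higher with TK in DOHH2 at 18 h. Their values in that comparison, and in any other that uses those libraries, are therefore given as a description and were not tested. For the other 3, no measured value is given as the ground of choice. The data are RNA-seq read counts from polyadenylated RNA of DOHH2 and U2932, both labelled as diffuse large B cell lymphoma (DLBCL) cell lines. Cells of each line received TK, a compound for which the labels give no structure, or its solvent DMSO, for 18 h or 8 h. In DOHH2 there were 3 libraries with TK at 18 h, 2 with DMSO at 18 h, 3 with TK at 8 h and 3 with DMSO at 8 h. In U2932 there were 3 with TK at 18 h, 1 with DMSO at 18 h, 2 with TK at 8 h and 3 with DMSO at 8 h. Nothing in the labels says that replicates came from separate cultures, and p-values therefore measure only the spread between these libraries, which may be technical. A difference between the lines compares these lines only.

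A microRNA is excised in the nucleus from a hairpin in its host transcript, trimmed in the cytoplasm and loaded into an Argonaute protein, which it guides to messenger RNAs that pair with its seed, the bases near its 5′ end. The host of miR-34a is a direct transcriptional target of p53, and miR-34a lowers cell cycle and survival genes. The host of miR-146a is induced by NF-kB, and miR-146a lowers the signalling proteins IRAK1 and TRAF6, which act upstream of NF-kB. MIR155HG, also called BIC, is induced when B cells are activated, and miR-155 is abundant in many B cell lymphomas. MIR17HG gives the miR-17 to miR-92a cluster, which MYC and E2F proteins switch on and which can drive B cell lymphoma. MIR22HG gives miR-22, which is known in blood and other tissues.

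The mature microRNAs are shown because they are what the 5 transcripts carry, and the capitals mark the seed, bases 2 to 8 counted from the 5′ end. All 11 hairpins of the 5 genes had an entry in the RefSeq annotation of GRCh38.p14, and the 11 sequences below are 1 arm of each.
hsa-miR-34a-5p: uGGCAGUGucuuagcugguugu
hsa-miR-146a-5p: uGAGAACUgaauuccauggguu
hsa-miR-3142: aAGGCCUUucugaaccuucaga
hsa-miR-155-5p: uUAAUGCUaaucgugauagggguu
hsa-miR-17-5p: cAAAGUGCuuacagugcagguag
hsa-miR-18a-5p: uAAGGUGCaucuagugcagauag
hsa-miR-19a-3p: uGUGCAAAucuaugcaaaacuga
hsa-miR-20a-5p: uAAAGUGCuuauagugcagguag
hsa-miR-19b-3p: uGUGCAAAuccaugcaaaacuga
hsa-miR-92a-3p: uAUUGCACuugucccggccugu
hsa-miR-22-3p: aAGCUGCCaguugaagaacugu
These sequences hold 9 different seeds. The seed AAAGUGC is shared by miR-17-5p and miR-20a-5p, and GUGCAAA by miR-19a-3p and miR-19b-3p. MIR17HG thus carries 6 of the 11 microRNAs, with 4 different seeds among them, and none of these seeds occurs in the other 4 hosts.

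In the GENCODE 29 annotation of GRCh38, MIR34AHG lies at chr1:9148011-9198906 on the minus strand. Of its 4 annotated transcripts, 1 holds miR-34a-5p in an exon, at chr1:9151735-9151756, and none holds it in an intron. MIR3142HG lies at chr5:160438594-160487426 on the plus strand. Its 2 annotated transcripts hold miR-146a-5p in an exon, at chr5:160485372-160485393, and miR-3142 in an intron, at chr5:160474492-160474513. MIR155HG lies at chr21:25561909-25575168 on the plus strand, with miR-155-5p in an exon at chr21:25573983-25574006. MIR17HG lies at chr13:91347820-91354579 on the plus strand, and its cluster is exonic in 2 of its transcripts and intronic in 1. MIR22HG lies at chr17:1711493-1717174 on the minus strand, with miR-22-3p in an exon at chr17:1713914-1713935. The counts therefore measure the host RNA. A row for each of the 11 hairpins is in the files and held 0 counts over all libraries, so no value here is a level of a microRNA.

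**Figure D1:**
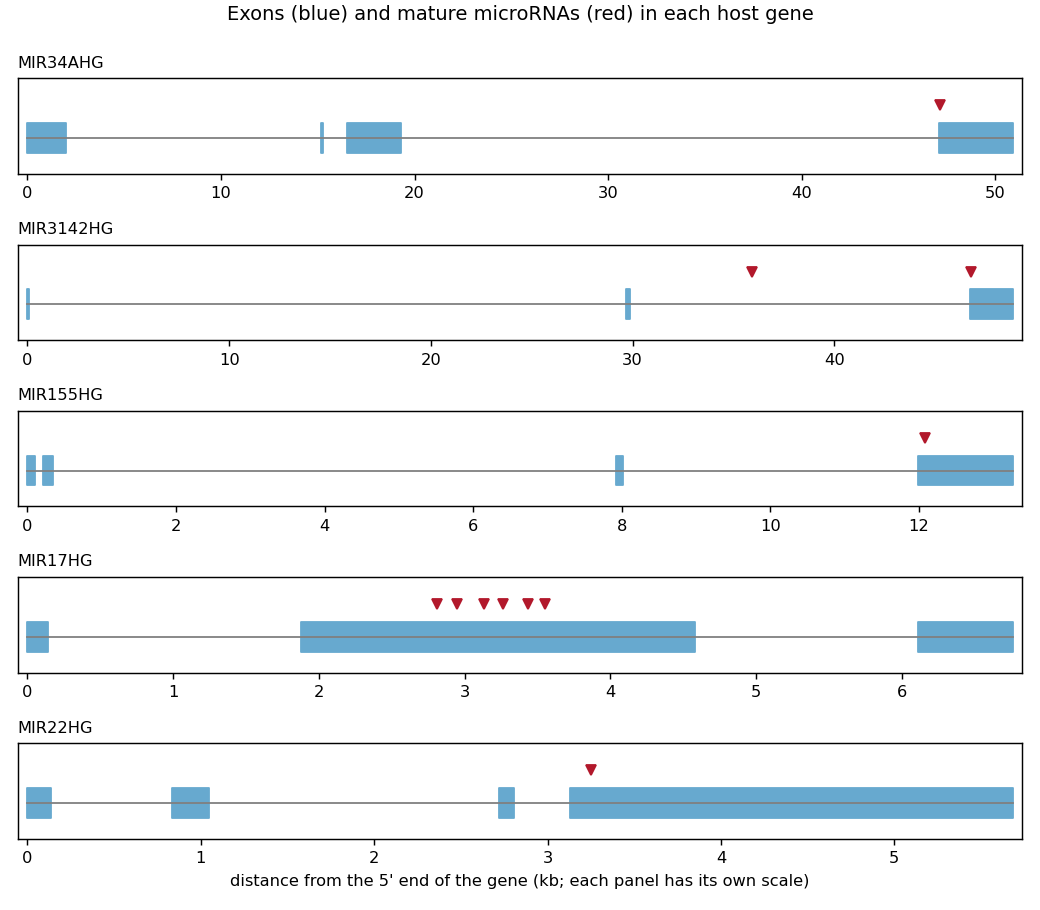
Maps of the 5 host genes, with distance from the gene's 5′ end in kb on the x axis, exons of all annotated transcripts as blue boxes and mature microRNAs as red triangles. The mature miR-34a, miR-146a and miR-155 sit near the 3′ end of the gene, and each panel has its own scale.

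The stretch around the annotated start was searched in all 5 genes, from 250 bases before to 50 bases after the RefSeq start (GRCh38.p14), on both strands. The motifs were the consensus sites of NF-kB and of p53 (a single decamer, and a full site with its decamers up to 13 bases apart), the E-box CACGTG, the AP-1 site TGANTCA and TATAAA. The promoters of 2 of the 3 hosts with a match are printed, with the matches in capitals. The MIR3142HG stretch is chr5:160468001-160468300 on the plus strand, and that of MIR155HG is chr21:25561895-25562194 on the plus strand.
MIR3142HG promoter: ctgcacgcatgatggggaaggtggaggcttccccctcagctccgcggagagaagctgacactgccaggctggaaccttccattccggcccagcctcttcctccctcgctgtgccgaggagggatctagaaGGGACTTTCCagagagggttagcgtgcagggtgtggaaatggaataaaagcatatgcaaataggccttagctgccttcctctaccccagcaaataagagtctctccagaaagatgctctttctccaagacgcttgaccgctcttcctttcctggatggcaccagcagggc
MIR155HG promoter: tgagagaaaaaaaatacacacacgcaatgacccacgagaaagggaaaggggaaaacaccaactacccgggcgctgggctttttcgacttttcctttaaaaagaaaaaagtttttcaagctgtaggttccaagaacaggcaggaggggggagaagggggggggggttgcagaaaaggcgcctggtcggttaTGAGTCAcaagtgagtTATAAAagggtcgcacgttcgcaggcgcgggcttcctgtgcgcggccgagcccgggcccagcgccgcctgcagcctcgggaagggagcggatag
The MIR3142HG stretch holds an NF-kB match, GGGACTTTCC, 120 to 111 bases before the start. Such a match was found in 11.3% of 35116 promoters of this length. Of the 5 stretches only that of MIR155HG includes the GENCODE 5′ end of its gene, and those of MIR34AHG, MIR3142HG and MIR22HG lie inside the gene. The MIR155HG stretch holds TGAGTCA 60 to 54 bases before the start, a motif found in 7.71% of promoters, and TATAAA 44 to 39 bases before it, found in 11.5%. MIR17HG had a single p53 decamer, GGGCTTGTCC, 43 to 34 bases before its start, as did 6.63% of promoters. The stretches of MIR34AHG and MIR22HG held none of these letters, and the full p53 site (0.0285% of promoters) and CACGTG (7.26%) were in none of the 5. A match describes the letters and does not show binding.

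The libraries held 30363255 to 52275430 counts in genes. The share of alignments that were not unique was 20.7 to 34.3% in 19 libraries and 56.6% in DOHH2 TK 18 h replicate 1. All 6 B cell markers were above 1 CPM, counts scaled to the size of each library, in both lines, and their sum was 805 to 1481 CPM in DOHH2 and 2351 to 3009 CPM in U2932. T cell markers summed to at most 0.525 CPM in DOHH2 and 0.266 CPM in U2932, with CD3D at 0 in DOHH2. Myeloid markers summed to at most 0.951 CPM in DOHH2 and 2.37 CPM in U2932. The epithelial gene EPCAM averaged 26.6 CPM in U2932, and the stromal genes COL1A1 and PDGFRB averaged 12.8 and 4.86 CPM in DOHH2. BCL6, which marks germinal centre B cells, averaged 0.0983 CPM in DOHH2 and 384 CPM in U2932, while IRF4, which marks activated B cells, averaged 802 CPM in DOHH2 and 371 CPM in U2932. In the germinal centre list, LMO2 and MYBL1 were also lower in DOHH2 (0.333 and 0.856 CPM) than in U2932 (21.8 and 57.9 CPM). MME and S1PR2 differed less in that direction. In the activated list, CCND2 and ENTPD1 were also higher in DOHH2 (110 and 119 CPM) than in U2932 (0.47 and 8.14 CPM). The remaining markers of these lists, GCSAM, FOXP1, PIM1 and BATF, went the opposite way. GCSAM, of the germinal centre list, averaged 172 CPM in DOHH2, against 50.5 CPM in U2932. FOXP1, of the activated list, averaged 6.82 CPM in DOHH2, against 43.3 CPM in U2932, and PIM1, of the same list, 41.3 CPM in DOHH2, against 119 CPM in U2932. The labels do not class the lines by subtype and were kept as given. These markers differ between the lines as the hosts do, and their part in the line differences was not tested.

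The 2 lines held the host transcripts at different levels. In cells kept in DMSO for 8 h, DOHH2 had more of MIR34AHG, the miR-34a host, and of MIR155HG, and less of MIR3142HG, MIR17HG and MIR22HG than U2932. Levels are CPM scaled by TMM factors, and a difference was called where edgeR's quasi-likelihood test gave a Benjamini-Hochberg adjusted p under 0.05 over all 16478 genes tested. All 5 hosts passed the filter on low counts and all 5 were called, in a comparison that called 67.8% of all genes tested.

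MIR34AHG had 17.5, 18.7 and 18.6 CPM in the DMSO 8 h libraries of DOHH2, against 1.03, 1.15 and 1.28 CPM in those of U2932. The DOHH2 libraries all lay far above those of U2932, and MIR34AHG was 15.7-fold higher in DOHH2 (log2 difference 3.98, SE 0.21, edgeR adjusted p = 6.68e-13). MIR155HG had 97.9, 95.1 and 66.95 CPM in DOHH2, against 52.98, 41.0 and 30.3 CPM in U2932. Its groups did not overlap, but the lowest DOHH2 library and the highest U2932 library were close, and the difference was 2.09-fold (log2 1.06, SE 0.19, edgeR adjusted p = 6.35e-05).

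MIR3142HG, which carries miR-146a, had 7.91, 7.77 and 6.88 CPM in DOHH2, against 90.3, 88.5 and 84.1 CPM in U2932. The replicates agreed closely within each line, and MIR3142HG was 11.7-fold lower in DOHH2 (log2 −3.54, SE 0.14, edgeR adjusted p = 9.56e-15). MIR17HG had 6.67, 4.83 and 6.99 CPM in DOHH2, against 63.4, 59.2 and 46.0 CPM in U2932. It was 9.14-fold lower in DOHH2 (log2 −3.19, SE 0.36, edgeR adjusted p = 1.94e-07). MIR22HG had 0.130, 0.356 and 0.135 CPM in DOHH2, against 2.01, 2.16 and 1.88 CPM in U2932. This is the least abundant host in DOHH2, where its 11 libraries ranged over 0.0915 to 0.363 CPM, around the filter level of 0.288 CPM, and its difference was 9.16-fold (log2 −3.20, SE 0.36, edgeR adjusted p = 1.07e-07).

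**Figure D2:**
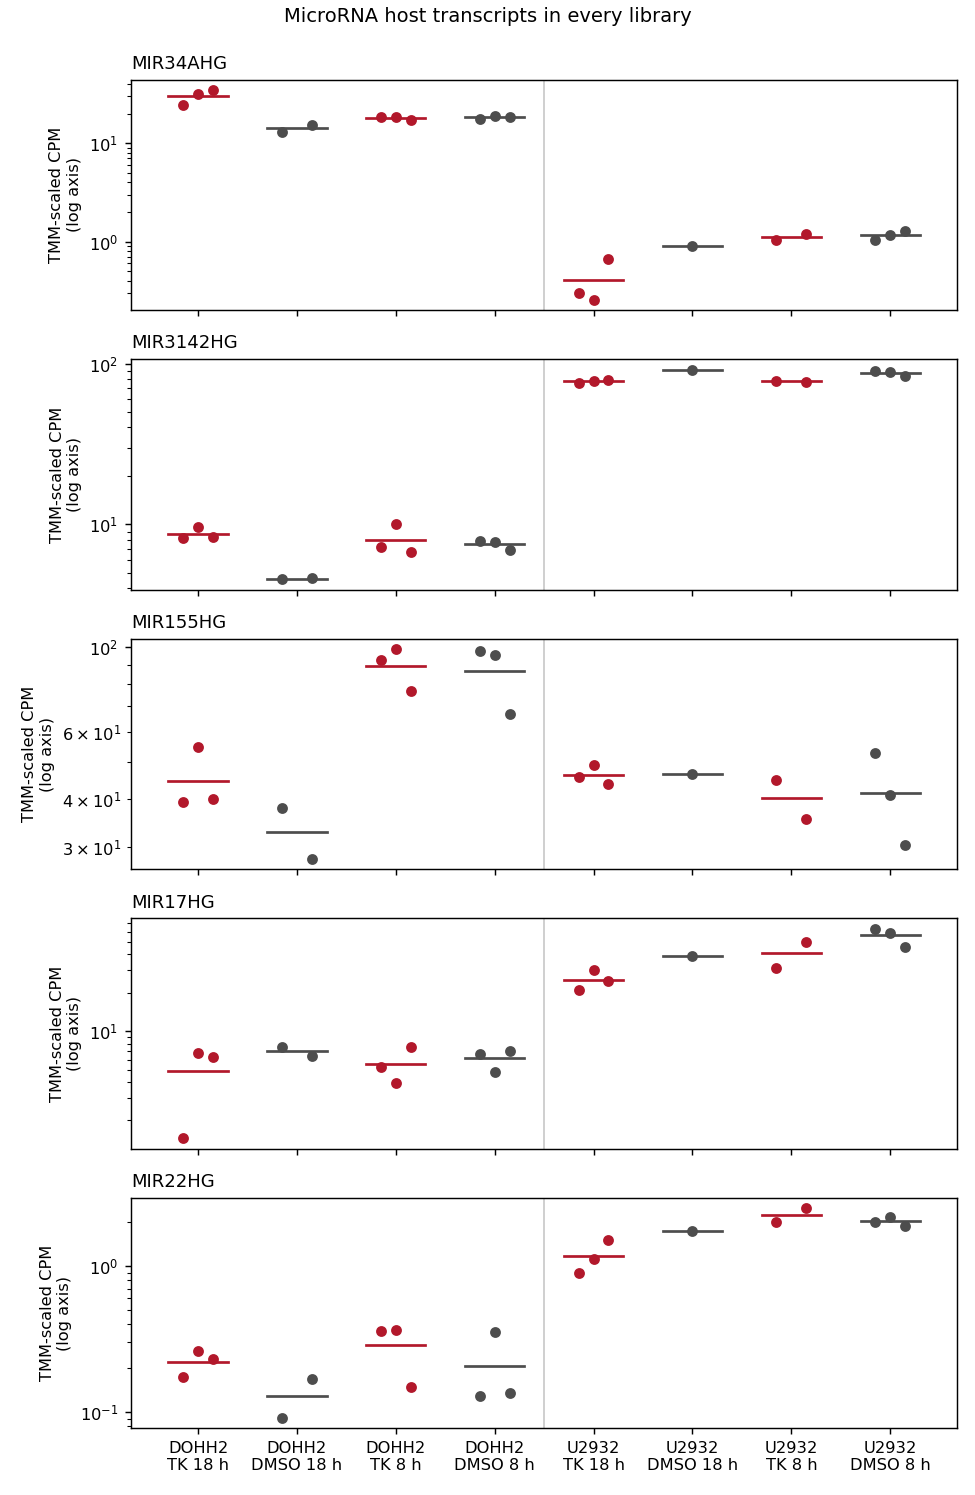
TMM-scaled CPM of each host (y axis, log scale) in all 20 libraries, by group on the x axis, with TK in red, DMSO in grey and bars at the group means. MIR34AHG and MIR155HG sit higher in DOHH2 at 8 h, and MIR3142HG, MIR17HG and MIR22HG sit higher in U2932 in every group.

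The same 5 directions were found with TK at 8 h, where all 5 hosts were called against 62.8% of genes. The log2 differences were 4.01 for MIR34AHG, 1.15 for MIR155HG, −3.27 for MIR3142HG, −2.87 for MIR17HG and −2.93 for MIR22HG. With TK at 18 h, 2 of the 3 hosts tested were called, against 69.2% of genes. MIR17HG was 5.17-fold lower in DOHH2 (log2 −2.37, SE 0.36, edgeR adjusted p = 7.95e-06), and MIR22HG was 5.18-fold lower (log2 −2.37, SE 0.36, edgeR adjusted p = 7.85e-06). MIR155HG averaged 44.7 ± 8.64 CPM in the DOHH2 libraries and 46.2 ± 2.71 CPM in the U2932 libraries (SD, n = 3 each). Its log2 difference of −0.05 had an interval of −0.45 to 0.36 (edgeR adjusted p = 0.845). The 2 hosts chosen on the DOHH2 18 h libraries differed by 6.14 (SE 0.24, MIR34AHG) and −3.15 (SE 0.14, MIR3142HG) on the log2 scale, as a description.

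Per kb of exon, so that genes can be set beside each other, the order of the hosts also differed between the lines. In DOHH2 with DMSO at 8 h, MIR155HG stood first at 54.2 ± 10.7 CPM per kb, followed by MIR3142HG at 3.16 ± 0.234, MIR34AHG at 2.10 ± 0.0804, MIR17HG at 1.77 ± 0.334 and MIR22HG at 0.0694 ± 0.0433 CPM per kb (SD, n = 3). MIR34AHG and MIR17HG were within their SDs of each other. In U2932 with DMSO at 8 h, MIR3142HG stood first at 36.9 ± 1.33 CPM per kb, followed by MIR155HG at 25.9 ± 7.09, MIR17HG at 16.1 ± 2.59, MIR22HG at 0.676 ± 0.0464 and MIR34AHG at 0.133 ± 0.0144 CPM per kb (SD, n = 3). MIR34AHG was thus in the middle of the order in DOHH2 and last in U2932. The length is the union of all annotated exons (8.702 kb for MIR34AHG against 1.6 kb for MIR155HG), so the order holds for that definition of length. For MIR34AHG and MIR3142HG the count files carry an earlier version of the gene entry than GENCODE 29, so the exons counted may differ from those measured here.

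Other genes listed as holding a microRNA were called between the lines about as often as genes in general. The list holds the other symbols in the files that begin with MIR and end with HG, and some genes added by name, such as EVL. It is not a full list of genes that hold a microRNA. Of its 66 genes, 47 had any count and 28 were tested. With DMSO at 8 h, 6 of the 28 were higher in DOHH2, 13 were lower and 9 were not called, so 19 of 28 were called beside 67.8% of all genes. The median log2 difference was −0.36, against −0.03 over all genes tested. The genes named next were picked by the size of the log2 difference, and all of them were lower in DOHH2. MIR4435-2HG had 0.180 CPM in DOHH2 and 6.98 CPM in U2932 (log2 −5.16, edgeR adjusted p = 2.00e-11). EVL, whose intron holds miR-342, had 0.846 CPM in DOHH2 and 26.1 CPM in U2932 (log2 −4.90, edgeR adjusted p = 3.70e-13). MIRLET7BHG, a host of let-7 family members, had 1.24 CPM in DOHH2 and 9.07 CPM in U2932 (log2 −2.85, edgeR adjusted p = 1.15e-09). MIR193BHG had 3.15 CPM in DOHH2 and 12.9 CPM in U2932 (log2 −2.03, edgeR adjusted p = 3.37e-08). Hosts with near-0 levels in DOHH2 entered the test through U2932, so the split of higher and lower genes describes the tested genes only.

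**Figure D3:**
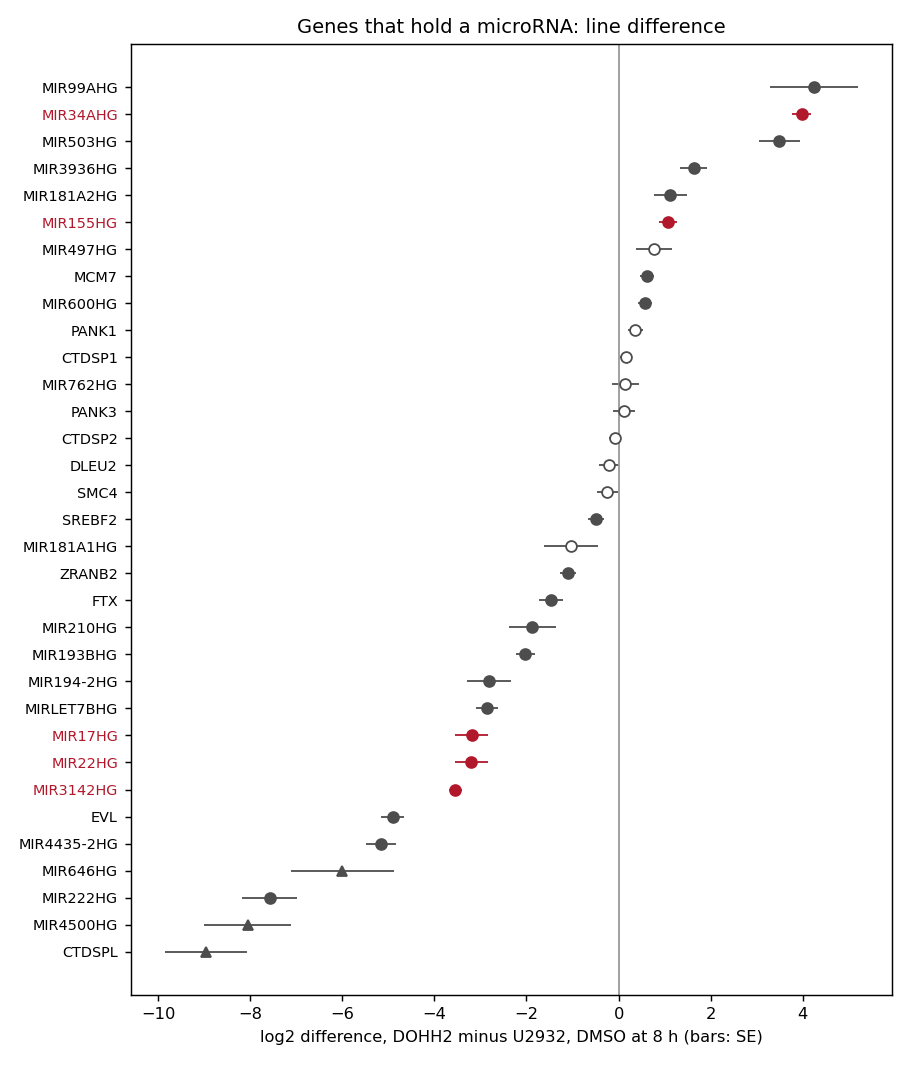
Log2 difference of DOHH2 minus U2932 with DMSO at 8 h (x axis, bars are SE) for the 5 hosts in red and the 28 other tested genes listed as holding a microRNA. Filled points are called, and triangles mark 3 genes without a count in the DOHH2 libraries, whose fitted values are no bound. MIR34AHG at 3.98 lies at the DOHH2 side, and MIR3142HG, MIR17HG and MIR22HG lie between −3.54 and −3.19.

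MYC, a regulator known for MIR17HG, went the other way from the host itself. Of 5 tested genes in the list of MYC and E2F regulators, 4 were higher in DOHH2 with DMSO at 8 h and none was lower. This count stands beside 67.8% of all genes called, and the median log2 difference was 0.76. MAX was not called (log2 0.20, edgeR adjusted p = 0.145), and E2F3 differed by 0.32 on the log2 scale. MYC had 453 ± 79.7 CPM in DOHH2 and 19.4 ± 5.06 CPM in U2932 (SD, n = 3 each, log2 4.55, SE 0.20, edgeR adjusted p = 5.75e-14). E2F1 had 134 CPM in DOHH2 and 74.6 CPM in U2932 (log2 0.85, edgeR adjusted p = 0.000215), and E2F2 had 18.7 CPM in DOHH2 and 11.1 CPM in U2932 (log2 0.76, edgeR adjusted p = 0.00106). MIR17HG was lower in the line with more MYC, and the counts do not show what sets either level. In the same comparison, 14 of 26 p53 targets were higher in DOHH2 and 8 lower, and 11 of 19 NF-kB targets were higher and 7 lower. Among them the p53 target PMAIP1 had 139 ± 21.1 CPM in DOHH2 and 959 ± 49.5 CPM in U2932 (SD, n = 3 each, log2 −2.79, edgeR adjusted p = 5.71e-13), and the NF-kB target BIRC3 had 13.1 ± 3.90 CPM in DOHH2 and 174 ± 15.3 CPM in U2932 (SD, n = 3 each, log2 −3.74, edgeR adjusted p = 1.11e-12). These counts stand beside the 67.8% of all genes that this comparison called.

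Genes that make and use microRNAs were likewise called about as often as all genes. Of 16, 6 were higher in DOHH2 and 5 lower with DMSO at 8 h, 11 in all beside 67.8% of all genes, with a median log2 difference of −0.01. DROSHA, which cuts the hairpin out of the host, had 77.2 CPM in DOHH2 and 39.3 CPM in U2932 (log2 0.97, edgeR adjusted p = 3.97e-07). XPO5, which carries the hairpin out of the nucleus, had 193 CPM in DOHH2 and 109 CPM in U2932 (log2 0.82, edgeR adjusted p = 6.54e-07). DICER1, which trims the hairpin, had 59.4 ± 10.2 CPM in DOHH2 and 117 ± 28.3 CPM in U2932 (SD, n = 3 each, log2 −0.98, edgeR adjusted p = 0.000237).

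Known targets of the hosted microRNAs split in both directions between the lines. For miR-34a, 7 of 14 tested targets were higher in DOHH2 and 5 lower. LEF1 had 6.57 CPM in DOHH2 and 74.7 CPM in U2932 (log2 −3.51, edgeR adjusted p = 2.55e-14). The survival gene BCL2 had 166 CPM in DOHH2 and 927 CPM in U2932 (log2 −2.48, edgeR adjusted p = 5.99e-10). NOTCH1 differed the other way, with 157 CPM in DOHH2 and 16.5 CPM in U2932 (log2 3.25, edgeR adjusted p = 2.13e-12). For miR-146a, 3 of 7 targets were higher in DOHH2 and 3 lower. IRAK1 had 365 ± 29.2 CPM in DOHH2 and 155 ± 18.5 CPM in U2932 (SD, n = 3 each, log2 1.23, edgeR adjusted p = 8.66e-08), while TRAF6 had 10.2 ± 1.66 CPM in DOHH2 and 17.3 ± 1.29 CPM in U2932 (SD, n = 3 each, log2 −0.77, edgeR adjusted p = 0.000276). The main pair of miR-146a targets therefore differed in opposite directions.

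For miR-155, 5 of 15 targets were higher in DOHH2 and 3 lower. GCSAM, a germinal centre gene, had 163 CPM in DOHH2 and 51.6 CPM in U2932 (log2 1.65, edgeR adjusted p = 5.50e-11), and SMAD5 had 23.8 CPM in DOHH2 and 92.0 CPM in U2932 (log2 −1.95, edgeR adjusted p = 1.39e-07). For the miR-17 cluster, 9 of 14 targets were higher in DOHH2 and 4 lower. CDKN1A, a cell cycle inhibitor that is on the miR-22 list as well, had 311 ± 79.2 CPM in DOHH2 and 29.9 ± 4.30 CPM in U2932 (SD, n = 3 each, log2 3.38, edgeR adjusted p = 1.41e-10). BCL2L11, which encodes the death protein BIM, differed in the opposite direction, with 30.1 CPM in DOHH2 and 143 CPM in U2932 (log2 −2.25, edgeR adjusted p = 7.05e-09). For miR-22, 5 of 13 targets were higher in DOHH2 and 3 lower. All 5 lists held called genes on both sides, at shares of their members that can be read only against the 67.8% of all genes called.

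TK was next set against DMSO within each line and time. No host passed the threshold in any of these 4 comparisons where it was tested, and edgeR called at most 12 genes in any of them. In DOHH2 at 8 h, 0% of genes were called by edgeR, with 497 genes at an unadjusted p under 0.05 and 0 called by DESeq2. Of the hosts, 0 of 5 were called by edgeR, 0 had an unadjusted p under 0.05 and DESeq2 called 0. MIR34AHG had 18.5, 18.5 and 17.3 CPM with TK, against 17.5, 18.7 and 18.6 CPM with DMSO, a log2 change of −0.02 with a 95% interval of −0.37 to 0.34. MIR3142HG had 7.26, 10.1 and 6.69 CPM with TK, against 7.91, 7.77 and 6.88 CPM with DMSO, a log2 change of 0.09 with an interval of −0.19 to 0.37. The groups of both hosts overlapped at 8 h. The intervals were −0.36 to 0.44 for MIR155HG, −0.89 to 0.61 for MIR17HG and −0.50 to 1.33 for MIR22HG.

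In DOHH2 at 18 h, 0.0728% of genes were called, 11 higher with TK and 1 lower, with 1411 genes at an unadjusted p under 0.05 and 85 called by DESeq2. MIR34AHG, chosen on this comparison, had 24.7, 31.5 and 34.5 CPM with TK, against 13.1 and 15.4 CPM with DMSO. The groups did not overlap, and the mean was 2.12-fold higher with TK (log2 1.09, SE 0.20). MIR3142HG, chosen in the same way, had 8.25, 9.65 and 8.30 CPM with TK, against 4.55 and 4.599 CPM with DMSO, a 1.91-fold higher value (log2 0.94, SE 0.16). Here too the groups did not overlap, but the TK level of MIR3142HG was close to the 6.88 to 7.91 CPM of DMSO at 8 h, and it was the DMSO 18 h libraries that stood lower. When the 8 h DMSO libraries were added to the control, which mixes time with TK, the log2 change was 0.86 for MIR34AHG and 0.47 for MIR3142HG. Left-out libraries gave 0.98 to 1.21 for MIR34AHG and 0.86 to 0.98 for MIR3142HG. These fits reuse the libraries on which both hosts were chosen, so the ranges are a description only.

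Of the 3 hosts tested in DOHH2 at 18 h, edgeR called 0, 0 had an unadjusted p under 0.05 and DESeq2 called 0. MIR155HG had 39.4, 54.7 and 40.1 CPM with TK, against 37.9 and 28.0 CPM with DMSO (log2 0.44, SE 0.22, 95% interval −0.01 to 0.90, edgeR adjusted p = 0.588). With 8 h DMSO in the control its sign turned, to −0.54. MIR17HG had 1.45, 6.80 and 6.27 CPM with TK, against 7.56 and 6.35 CPM with DMSO (log2 −0.51, interval −1.34 to 0.32, edgeR adjusted p = 0.805). The low MIR17HG value came from replicate 1, the library with 56.6% non-unique alignments, without which the log2 change was −0.08. MIR22HG had 27 counts summed over the TK libraries and 10 over the DMSO libraries (log2 0.75, interval −0.40 to 1.90, edgeR adjusted p = 0.790), an interval that spans both directions.

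**Figure D4:**
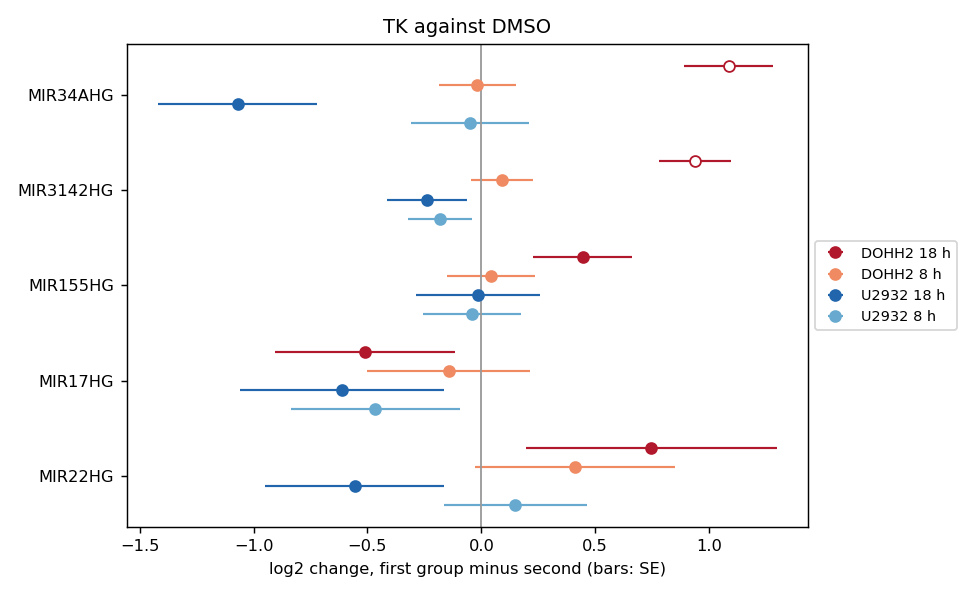
Log2 change of TK minus DMSO (x axis, bars are SE) of each host in DOHH2 at 18 h and 8 h and in U2932 at 18 h and 8 h. Open points are MIR34AHG at 1.09 and MIR3142HG at 0.94 in DOHH2 at 18 h, which were chosen on that comparison, and MIR34AHG lies at −1.07 in U2932 at 18 h.

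U2932 gave no called host either. At 8 h edgeR called 0% of genes, with 276 at an unadjusted p under 0.05 and 0 by DESeq2, and for the hosts 0 of 5 were called, 0 unadjusted and 0 by DESeq2. MIR17HG had 31.4 and 49.9 CPM with TK, against 63.4, 59.2 and 46.0 CPM with DMSO, and these groups overlapped (log2 −0.47, interval −1.24 to 0.31). At 18 h, where the comparison rests on 1 DMSO library, 0.0182% of genes were called, 1 higher and 2 lower, with 1227 at an unadjusted p under 0.05 and 60 called by DESeq2. Of the hosts 0 of 5 were called by edgeR, 1 had an unadjusted p under 0.05 and DESeq2 called 0. MIR34AHG had 0.298, 0.257 and 0.665 CPM with TK (9, 9 and 30 counts), against 0.899 CPM with DMSO (47 counts). All 3 TK libraries lay below the DMSO library (log2 −1.07, SE 0.35, interval −1.80 to −0.34, edgeR adjusted p = 0.487). When the 8 h DMSO libraries were added to the control, MIR34AHG was called lower in TK at 18 h (log2 −1.34, edgeR adjusted p = 0.00671). So was MIR17HG (log2 −1.04, edgeR adjusted p = 0.0419). Most libraries of that control are at 8 h, so TK and time cannot be told apart in it. With DMSO, MIR34AHG averaged 1.16 CPM at 8 h and had 0.899 CPM at 18 h. MIR17HG averaged 56.2 CPM at 8 h and had 38.5 CPM at 18 h. MIR3142HG had 75.4, 77.7 and 79.3 CPM with TK, against 91.5 CPM with DMSO (log2 −0.24, edgeR adjusted p = 0.811).

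The TK responses of the lines were then set against each other. At 8 h the difference of the responses was called for 0% of genes (316 unadjusted, 0 by DESeq2) and for 0 of 5 hosts (edgeR, with 0 unadjusted and 0 by DESeq2), with log2 differences of 0.03 to 0.32. At 18 h it was called for 0.0243% of genes (1017 unadjusted, 23 by DESeq2) and for 0 of the 3 hosts tested (edgeR, with 0 unadjusted and 0 by DESeq2). The difference at 18 h rests on 1 DMSO library of U2932, which is assumed to vary like the other groups. MIR34AHG differed by 2.16 (SE 0.40) and MIR3142HG by 1.18 (SE 0.23) on the log2 scale, both as a description. MIR22HG differed by 1.30 (SE 0.68, interval −0.11 to 2.72, edgeR adjusted p = 0.813), MIR155HG by 0.46 (SE 0.34, edgeR adjusted p = 0.889) and MIR17HG by 0.10 (SE 0.61).

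Targets of p53, the factor known to switch on the miR-34a host, were counted in the same comparisons. With TK in DOHH2 at 18 h, 3 of 26 rose and none fell, beside 0.0728% of all genes called, with a median log2 change of 0.66 against 0.02 over all genes. MDM2, which marks p53 for degradation, had 438 ± 50.7 CPM with TK (SD, n = 3) and 194 ± 16.6 CPM with DMSO (SD, n = 2, log2 1.17, SE 0.15, edgeR adjusted p = 0.000641). SESN1 had 27.8 ± 0.963 CPM with TK (SD, n = 3) and 12.4 ± 0.337 CPM with DMSO (SD, n = 2, log2 1.16, edgeR adjusted p = 0.000641), and EDA2R had 22.3 CPM with TK and 10.6 CPM with DMSO (log2 1.08, edgeR adjusted p = 0.0403). Leaving out replicate 3 of DMSO at 18 h gave 0 such genes, replicate 1 of DMSO 1, and replicate 1 of TK at 18 h or at 8 h 6, the highest of the left-out fits. The fits without a DMSO 18 h library rest on 1 library in that group. Without the filter 12 rose, with 8 h DMSO in the control, which mixes time with TK, 9, and by DESeq2 10. In U2932 at 18 h, edgeR called 0 of 26 p53 targets (3 unadjusted, 0 by DESeq2), with a median log2 change of 0.01. The difference of the MDM2 responses was 1.21 on the log2 scale (SE 0.22, edgeR adjusted p = 0.0777), with the same single DMSO library of U2932 in it. At 8 h edgeR called 0 of 26 in either line, with 0 unadjusted and 0 by DESeq2. Between 18 h and 8 h with TK in DOHH2, 7 of 26 rose and none fell, against 1.57% of genes called, and 2 to 10 rose when each library was left out, 2 without replicate 1 of TK at 8 h and 10 without its replicate 3. Among the 7, MDM2 had 438 ± 50.7 CPM at 18 h and 210 ± 20.6 CPM at 8 h (SD, n = 3 each, log2 1.06, edgeR adjusted p = 0.000212). The p53 list was chosen with these results known and is no independent evidence for MIR34AHG.

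The genes beside the hosts were read in the same fit. LNCTAM34A lies on the opposite strand and shares 431 exon bases with MIR34AHG, and no source used here states whether the counting used strand, which may leave the reads of the pair mixed. It had 1.65, 1.42 and 1.08 CPM with TK in DOHH2 at 18 h, against 0.671 and 0.623 CPM with DMSO (log2 1.10, SE 0.31, edgeR adjusted p = 0.264). Its values were higher in every TK library, at about the same log2 change as MIR34AHG and at a much lower level. The nearest tested protein-coding genes had log2 changes of 0.23 (GPR157, edgeR adjusted p = 0.867), 0.11 (H6PD, edgeR adjusted p = 0.956) and, beside MIR3142HG, 0.02 (PTTG1, edgeR adjusted p = 1) and 0.56 (ATP10B, SE 1.23, edgeR adjusted p = 0.967). In the line comparison H6PD was higher in DOHH2 (log2 2.53) and GPR157 lower (log2 −1.40), one on each side of MIR34AHG.

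MIR155HG was lower at 18 h than at 8 h in DOHH2 under both treatments. With DMSO it had 37.9 and 28.0 CPM at 18 h, against 97.9, 95.1 and 66.95 CPM at 8 h. It fell 2.63-fold (log2 −1.40, SE 0.23, edgeR adjusted p = 0.00628), in a comparison that called 0.631% of genes, 24 higher and 80 lower, and 1 of the 3 hosts tested. With TK it had 39.4, 54.7 and 40.1 CPM at 18 h, against 92.3, 98.7 and 76.7 CPM at 8 h. It fell 1.99-fold there (log2 −0.996, SE 0.19, edgeR adjusted p = 0.0175), in a comparison that called 1.57% of genes, 112 higher and 146 lower, and again 1 of the 3 hosts tested. The 18 h and 8 h libraries did not overlap under either treatment. The DMSO call was lost on leaving out, at 18 h, replicate 1 (log2 −1.63, edgeR adjusted p = 0.0897) or replicate 3 (log2 −1.19, edgeR adjusted p = 0.187), each of which leaves 1 library at 18 h. The TK call was lost on leaving out replicate 3 at 18 h (log2 −0.92, edgeR adjusted p = 0.0547), or at 8 h replicate 1 (log2 −0.97, edgeR adjusted p = 0.0554) or replicate 2 (log2 −0.92, edgeR adjusted p = 0.102).

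The other hosts in DOHH2 had smaller values of this change. As a description, MIR34AHG had a log2 change of −0.36 (SE 0.19) between 18 h and 8 h with DMSO and 0.74 (SE 0.17) with TK. MIR3142HG had −0.72 (SE 0.16) with DMSO and 0.13 (SE 0.13) with TK. In these libraries, which chose both hosts, MIR34AHG at 18 h was higher than at 8 h under TK and also lower under DMSO. MIR3142HG at 18 h was lower than at 8 h under DMSO and overlapped its 8 h level under TK. MIR17HG had log2 changes of 0.18 with DMSO and −0.19 with TK, and the last became 0.24 without TK 18 h replicate 1.

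In U2932 with TK, edgeR called 0.218% of genes between 18 h and 8 h, 10 higher and 26 lower. Of the hosts 0 of 5 were called, 2 had an unadjusted p under 0.05 and DESeq2 called 1. MIR34AHG had 0.298, 0.257 and 0.665 CPM at 18 h, against 1.04 and 1.19 CPM at 8 h, a value 2.61-fold lower (log2 −1.38, SE 0.29, interval −1.99 to −0.77, edgeR adjusted p = 0.0505). This lies just beyond the threshold, and other settings called it. MIR22HG had 0.894, 1.11 and 1.51 CPM at 18 h, against 1.99 and 2.48 CPM at 8 h (log2 −0.92, SE 0.32, edgeR adjusted p = 0.141), and MIR17HG had 20.9, 30.1 and 24.6 CPM at 18 h, against 31.4 and 49.9 CPM at 8 h (log2 −0.69, SE 0.36, edgeR adjusted p = 0.311). For both the 18 h libraries lay below those at 8 h without passing the threshold. MIR155HG had 45.7, 49.1 and 43.7 CPM at 18 h, against 45.0 and 35.6 CPM at 8 h (log2 0.20, SE 0.22, edgeR adjusted p = 0.654).

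The change of MIR155HG over time with TK was seen to differ between the lines and was then tested on the same libraries. In a contrast added after the values were seen, the change with TK between 18 h and 8 h was lower in DOHH2 than in U2932 by 1.19 on the log2 scale (−1.19, SE 0.29, interval −1.80 to −0.58, edgeR adjusted p = 0.0251), where 6.69% of genes and 1 of 3 hosts tested were called. The call was lost on leaving out 1 of 4 libraries, namely in DOHH2 at 8 h replicate 1 (edgeR adjusted p = 0.0549) or replicate 2 (edgeR adjusted p = 0.0535), and in U2932 replicate 2 at 18 h (edgeR adjusted p = 0.0661) or at 8 h (edgeR adjusted p = 0.212). The difference kept its sign without each library left out in turn, at −1.37 to −1.03. MIR17HG differed by 0.50 (SE 0.52, edgeR adjusted p = 0.577) and MIR22HG by 0.56 (SE 0.55, edgeR adjusted p = 0.555). MIR34AHG differed by 2.13 (SE 0.34), as a description.

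Targets of NF-kB, the factor known to induce the miR-146a host, were counted over the same times in DOHH2. The MIR155HG stretch searched above held no NF-kB match, and a link between these targets and MIR155HG was not tested. With DMSO 13 of 19 fell between 18 h and 8 h and none rose, against 0.631% of genes called, with a median log2 change of −1.20 against 0.00 over all genes. BCL2A1, a survival gene, had 6.78 ± 0.944 CPM at 18 h (SD, n = 2) and 27.3 ± 7.55 CPM at 8 h (SD, n = 3, log2 −2.01, SE 0.28, edgeR adjusted p = 0.00406). EBI3 had 8.90 CPM at 18 h and 30.6 CPM at 8 h (log2 −1.78, SE 0.30, edgeR adjusted p = 0.00862). NFKBIA, the inhibitor that NF-kB induces against itself, had 67.3 CPM at 18 h and 144 CPM at 8 h (log2 −1.10, SE 0.17, edgeR adjusted p = 0.00460). CD40, a receptor that activates B cells, had 41.5 CPM at 18 h and 110 CPM at 8 h (log2 −1.41, SE 0.24, edgeR adjusted p = 0.00893). Leaving out replicate 1 or replicate 3 of DMSO at 18 h leaves 1 library in that group, so the count cannot be checked in that way. Leaving out replicate 2 of DMSO at 8 h gave 2 such genes. The DOHH2 libraries alone gave 5 of 17 tested, and DESeq2 called 16 of 19. All 19 had a negative log2 change, and 17 had an unadjusted p under 0.05. The count of 13 thus depends on the libraries and the fit.

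With TK 6 of 19 NF-kB targets fell in DOHH2 between 18 h and 8 h and none rose, against 1.57% of genes called, with a median of −0.80 against 0.02. BCL2A1 had 8.46 CPM at 18 h and 33.4 CPM at 8 h (log2 −1.98, SE 0.24, edgeR adjusted p = 0.000212), and NFKBIA had 83.2 CPM at 18 h and 148 CPM at 8 h (log2 −0.83, edgeR adjusted p = 0.00982). CD40, EBI3, CCL4 and RELB were the other 4. Leaving out replicate 1 or 2 at 8 h or replicate 3 at 18 h gave 1 to 2 such genes, leaving out replicate 1 at 18 h gave 12 and replicate 3 at 8 h gave 15. The DOHH2 libraries alone gave 2 of 17, DESeq2 12, and no filter 15. In U2932 with TK edgeR called 0 of 19 (3 unadjusted, 2 by DESeq2), with a median of 0.06, and in the contrast of the lines 5 of 19 were lower in DOHH2, led by BCL2A1 (log2 −2.64, edgeR adjusted p = 0.00392). TK against DMSO in DOHH2 at 18 h gave 0 of 19 (edgeR, with 9 unadjusted and 0 by DESeq2) and a median of 0.51 against 0.02. The NF-kB list was also chosen with results known.

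**Figure D5:**
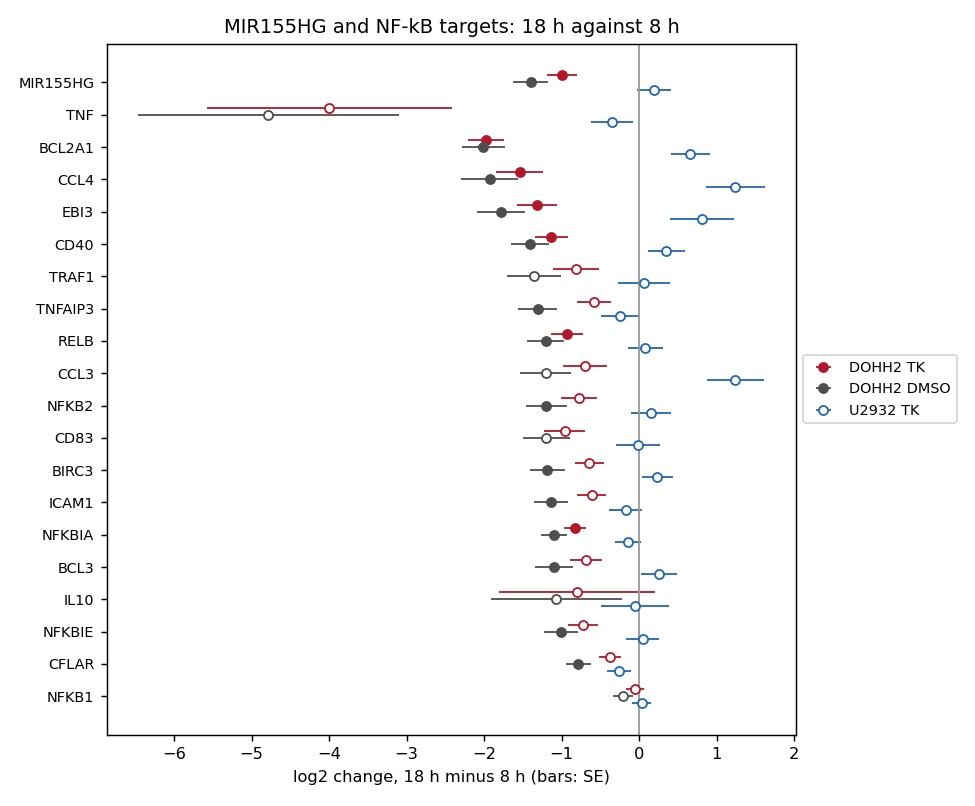
Log2 change between 18 h and 8 h (x axis, bars are SE) of MIR155HG and the 19 NF-kB targets, with DOHH2 TK in red, DOHH2 DMSO in grey and U2932 TK in blue, and filled points where the change was called. MIR155HG lies at −0.996, −1.40 and 0.20, and none of the U2932 points is called.

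Outside the p53 list, edgeR called no gene of the lists with TK. In the 4 comparisons of TK with DMSO edgeR called 0 of 16 genes that make or use microRNAs, with 1 and 1 unadjusted in DOHH2 at 18 h and 8 h, 2 and 0 in U2932 at 18 h and 8 h, and 0 by DESeq2. The smallest p in DOHH2 at 18 h belonged to DGCR8, the partner of DROSHA (73.1 ± 7.36 CPM with TK and 90.4 CPM with DMSO, log2 −0.31, edgeR adjusted p = 0.546). No gene of the 5 target lists was called by edgeR in these comparisons, and DESeq2 called 1 in the miR-17 and 1 in the miR-22 list in DOHH2 at 18 h. The smallest p of both those lists belonged to CDKN1A, a cell cycle inhibitor that p53 also induces, with 504 ± 163 CPM with TK (SD, n = 3) and 259 CPM with DMSO (log2 0.96, edgeR adjusted p = 0.252). Of the 28 other listed genes that hold a microRNA, edgeR called 0 in each comparison of TK with DMSO, with 0 or 1 unadjusted and 0 by DESeq2. Over time in DOHH2 with TK, TNRC6B, a silencing partner of Argonaute, rose to 54.0 ± 12.6 CPM at 18 h, against 29.5 ± 3.20 CPM at 8 h (SD, n = 3 each, log2 0.87, edgeR adjusted p = 0.0104).

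Genes whose profile was most like each host were named by Pearson's r of log2 CPM over the 20 libraries, after each line's mean was taken off, among 8890 genes with a mean of at least 5 CPM in each line. The libraries share their groups and depth, so r is a description. MIR155HG was most like SYS1 (r = 0.880), BIRC3 (r = 0.877) and CD80 (r = 0.872). BIRC3 is an NF-kB target and CD80 a costimulatory protein, and their r with MIR155HG was 0.911 and 0.915 in DOHH2 but 0.491 and 0.271 in U2932. MIR17HG was most like LRPPRC (r = 0.938), SEH1L (r = 0.919) and NANP (r = 0.904), with r of at least 0.881 in each line. MIR34AHG was most like CYB561D1 (r = 0.819), FBXL20 (r = 0.804) and GATAD1 (r = 0.786), with higher r in U2932 than in DOHH2 for all 3. MIR3142HG was most like VMP1 (r = 0.796), CDC42EP3 (r = 0.788) and ST3GAL5 (r = 0.784), and MIR22HG was most like TPRG1L (r = 0.738), MTFR1L (r = 0.730) and CLUHP3 (r = 0.722).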

How the data were processed

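The deposited files of the 20 libraries hold raw read counts for each gene, whole numbers not normalised by the authors per the labels, from RNA-seq of polyadenylated RNA. STAR, HTSeq, edgeR and GRCh38.p10 are named in the submitters' processing notes, without versions. Strand setting and annotation release: not given in the sources used here. The files hold 58288 genes and 5 summary counts, which were kept out of library sizes and tests.

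The deposited counts were fitted in R 4.3.3 with edgeR 4.0.16 and limma 3.58.1 (TMM scaling, robust quasi-likelihood, 1 coefficient for each of the 8 groups). Genes that reached 10 counts in the median library (0.288 CPM) in at least 3 libraries were kept, 16478 of 34160 with any count. Benjamini-Hochberg adjustment ran over all of them in each of 13 comparisons, and intervals are at 95%. Every result was recomputed with a filter of 50 counts or none, RLE scaling, only the libraries of 1 line, a replicate block, 8 h DMSO libraries added to the 18 h control, DESeq2 1.42.0, and each library left out. On simulated counts for 16478 genes, the TK comparison in DOHH2 at 18 h recovered 62.9% of 2-fold and 88.9% of 4-fold changes, and that in U2932 at 18 h 34.0% and 79.2%. The difference of responses at 8 h recovered 39.2% and 78.6%.

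The 20 libraries held 30363255 to 52275430 counts, and 3 counts were 0.0562 to 0.0993 CPM. Coordinates came from GENCODE 29, which matched 58025 of 58288 IDs, 55661 with the same version, and sequences from RefSeq GRCh38.p14. Members and gene lists were chosen with earlier results of these data known. Named genes were all members, up to 4 called genes of a list by smallest p (where none was called, the gene with the smallest p) and the 3 genes most like each host. From the other genes that hold a microRNA, called genes with a mean of at least 5 CPM in a line were named by largest absolute log2 difference. BCL2, DICER1, TRAF6, CCL4, RELB and the marker and neighbouring genes fall outside these rules and were chosen after their values were seen. A few genes of the lists are not reported here by name.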

Additional observations from a re-analysis of the deposited data

Results flagged for a closer look

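At 18 h the TK response of MIR34AHG, TK minus DMSO on the log2 scale, was 2.16 higher in DOHH2 than in U2932, and that of MIR3142HG was 1.18 higher. In both cases every TK library of DOHH2 lay above the DMSO libraries and every TK library of U2932 lay below its 1 DMSO library. These hosts were chosen on the DOHH2 comparison, so their order in DOHH2 follows in part from that choice and the difference was not tested. In U2932 the order rests on 1 DMSO library. The share of all genes with such an opposite order is not given here. MIR22HG had the same opposite order, with a difference of 1.30 that did not pass the threshold (edgeR adjusted p = 0.813). Its DOHH2 values at 18 h rest on 27 counts summed over the TK libraries and 10 over the DMSO libraries. Over time with TK, MIR34AHG was higher at 18 h in every DOHH2 library and lower at 18 h in every U2932 library than at 8 h, a difference of 2.13 that was not tested. The change of MIR155HG over time with TK differed between the lines by −1.19 (edgeR adjusted p = 0.0251), in a contrast added after the values were seen.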

How the results depend on the processing

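The 5 line differences with DMSO at 8 h and with TK at 8 h were called in their direction under every alternative run. Between 18 h and 8 h with TK in U2932, 0 hosts were called in the fit of all libraries, against 2 with no filter, 1 with a filter of 50 counts, 3 with U2932 alone, 1 with the replicate block, 1 with DESeq2 and 0 to 1 without each library. MIR34AHG was among them, at edgeR adjusted p = 0.00204, 0.0440, 0.0341 and 0.0373 and DESeq2 adjusted p = 0.00200. TK against DMSO in U2932 at 18 h gave 2 called hosts when the 8 h DMSO libraries were added to the control, where TK and time cannot be told apart. Without each library in turn, the count was 0 to 1 in DOHH2 over time with DMSO, with TK, and in the contrast of the lines over time.

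Some signs turned. MIR155HG stood at −0.54, against 0.44 in the fit as reported, in DOHH2 and 0.11 in U2932 at 18 h against DMSO of both times. That control mixes time with TK, and in DOHH2 with DMSO MIR155HG averaged 32.9 CPM at 18 h and 86.6 CPM at 8 h. MIR3142HG over time with TK in U2932 was −0.0032 with a filter of 50 counts and −0.0016 with U2932 alone. Under the replicate block MIR34AHG at 8 h was 0.014 in U2932 and −0.025 for the difference of responses, MIR155HG in U2932 at 18 h was 0.10 and the MIR17HG difference of responses at 18 h was −0.0994. Without each library, MIR34AHG at 8 h ranged over −0.048 to 0.016 in DOHH2, −0.16 to 0.040 in U2932 and −0.057 to 0.14 for the difference. MIR155HG at 8 h ranged over −0.11 to 0.14 in DOHH2, −0.22 to 0.18 in U2932 and −0.13 to 0.27 for the difference, and at 18 h over −0.046 to 0.025 in U2932 and −0.22 to 0.039 between the lines with TK. MIR17HG ranged over −0.43 to 0.056 in DOHH2 at 8 h, −0.54 to 0.24 in DOHH2 over time with TK and −0.25 to 0.53 for the difference of responses at 18 h. MIR3142HG ranged over −0.11 to 0.21 in DOHH2 at 8 h and −0.014 to 0.022 in U2932 over time. MIR22HG ranged over −0.020 to 0.30 in U2932 at 8 h and −1.22 to 0.0044 in DOHH2 over time with DMSO, where the reported value was −0.69. The cause was not tested.

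Replicate numbers were checked as a pairing by the correlation of deviations, which was 0.0254 to 0.275 over 7 pairs, not every one above 0.1. These values neither show nor exclude a shared culture or batch. U2932 at 18 h, with 1 DMSO library, could not be checked. The reported fit used no pairing. Depth limits MIR22HG in DOHH2, with 10 to 29 counts summed over a group, and MIR34AHG in U2932 with TK at 18 h, with 9 to 30 counts a library. U2932 DMSO at 18 h is 1 library. Where leaving out a library left 1 in a group, that library was assumed to vary like the others.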

Other observations

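In the contrast of the lines over time with TK, which was added after the values were seen and called 6.69% of genes, other lists held called genes too. Of 26 p53 targets 7 changed more upward in DOHH2 and none more downward, with a median of 0.53 against 0.03 over all genes. They included MDM2 (log2 1.22, SE 0.19, edgeR adjusted p = 0.00847), SESN1 (log2 1.07, edgeR adjusted p = 0.0140) and POLH (log2 1.04, edgeR adjusted p = 0.0174). Of 16 genes that make or use microRNAs, 3 changed more upward in DOHH2, TNRC6B (log2 1.12), AGO2 (log2 0.84) and AGO1 (log2 0.70), and RAN more downward (log2 −0.58).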
